A study of Zea mays with 11 samples.

Results

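The ear leaf of the maize inbred line Mo17, the leaf borne at the node of the ear, was compared with young whole kernels of the same line. The comparison used 3 of the 11 libraries of the series: ear leaf taken 13 days after pollination (DAP), which the study chose as its control tissue, and whole kernels at 3 DAP and at 5 DAP, which hold the maternal tissues together with the young endosperm and embryo. The other 8 libraries were isolated endosperm from 7 to 25 DAP and are used below only to place the genes that differed. All plants were field-grown Mo17 inbreds (Chengdu, China), ears were selfed on a common day, tissue was cut out by hand around midday, and poly(A) RNA was sequenced. Each stage had 1 library, so the spread between plants or preparations was not measured and no difference below has a test. The kernel libraries are 2 stages and not replicates. Leaf and kernels were also taken on different days, so tissue and day of sampling cannot be told apart, and in bulk tissue fewer cells of a type and less RNA per cell cannot be told apart.

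A mature maize leaf is a C4 leaf. Mesophyll cells capture carbon dioxide with phosphoenolpyruvate (PEP) carboxylase and pass it on as malate, and the bundle sheath cells around the veins release it again with NADP-malic enzyme for the Calvin cycle. Sucrose made from the fixed carbon leaves through the phloem towards sinks such as the ear. A kernel in the first days after pollination is such a sink: most of its volume is maternal ovule tissue (nucellus and the ovary wall that becomes the pericarp), its cells divide and expand, and the endosperm has only begun to form.

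Levels were FPKM (sequenced fragments normalised for transcript length and for library size) as the authors deposited them. Genes with at least 5 FPKM in 1 of the 3 libraries were compared, 13820 of the 34145 genes listed. A gene was called higher or lower in leaf when the ratio of FPKM + 1 was at least 4-fold, 2 on the log2 scale, against the 3 DAP and the 5 DAP kernel alike. Many genes pass the filter through the tissue in which they are high, so counts over a list describe these libraries and support nothing further. Each list holds the genes whose name or Arabidopsis description fitted its subject, and "match" below means the Arabidopsis gene that the authors set beside the maize identifier.

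Leaf and kernel differed widely and in both directions. In ear leaf 1631 genes were called higher (11.8% of those compared) and 1680 lower (12.2%), while 10509 were not called. The leaf lay above both kernel libraries, by any margin, for 4363 genes (31.6%), below both for 8568 (62%) and between or level with them for 889. At larger ratios the genes high in leaf were the more numerous: 445 were at least 16-fold higher against 239 at least 16-fold lower, and 97 were at least 64-fold higher against 40 at least 64-fold lower. The 1 FPKM added to each value (the pseudocount) caps a ratio by the level on its high side, and that level differed between the directions (medians below). With a pseudocount of 0.1 FPKM, 45.5% of all calls were higher in leaf, against 49.3% with 1 FPKM. The called higher genes had a median of 27.2 FPKM in leaf, against 1.30 and 0.96 FPKM in the 3 and 5 DAP kernels. The called lower genes had a median of 0.385 FPKM in leaf, against 13.5 and 13.4 FPKM in the kernels.

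The median log2 ratio of leaf to kernels over all genes compared was -0.50, and every list median below is to be read against that value. It depends on the scaling: over the genes compared in each case it was -0.26 after quantile normalization, -0.26 with upper quartile scaling and 0.10 with median-of-ratios scaling. Of all calls made on the deposited values 49.3% were higher in leaf; with median-of-ratios scaling 63.7% were (2181 higher, 1243 lower), with a pseudocount of 5 FPKM 66.2% were, and among genes of at least 20 FPKM 60.4% were. The kernel libraries were close to each other, with a median absolute log2 ratio of 1.06 between leaf and kernels, against 0.22 between the kernels, and 95 genes differed at least 4-fold between 3 and 5 DAP. The summed FPKM were 294244 in leaf, 279526 at 3 DAP and 273651 at 5 DAP, and 16809, 18961 and 18769 genes reached 1 FPKM in these libraries. Sequencing depth is unknown, because the rounding of the deposited values hides the step that 1 read is worth.

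**Figure D1:**
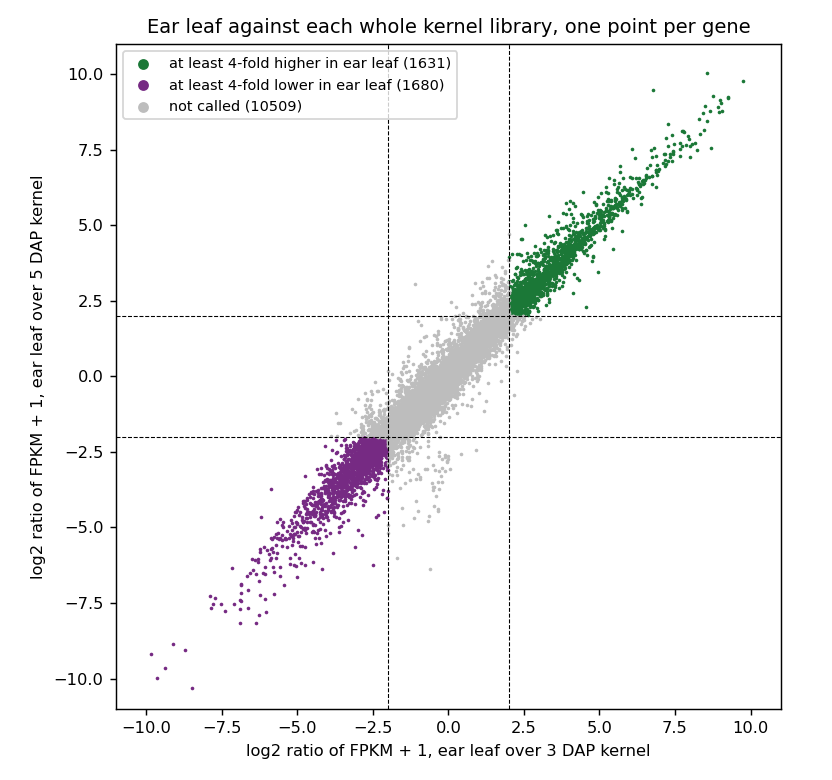
Each point is 1 of the 13820 genes compared; the x axis is the log2 ratio of FPKM + 1 of ear leaf to the 3 DAP kernel, the y axis the same ratio to the 5 DAP kernel, and dashed lines mark 4-fold. The 1631 genes higher in leaf (green) fill the upper right corner and the 1680 lower in leaf (purple) the lower left, and no gene was 4-fold above one kernel library and 4-fold below the other.

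The highest transcript of the leaf was bss1 (GRMZM2G168552) with 2517 FPKM there, against 4.82 and 3.01 FPKM in the 3 and 5 DAP kernels. The highest of the 5 DAP kernel was the ATH4 match GRMZM2G150091, listed at 0 in leaf and with 356 FPKM at 3 DAP and 1280 FPKM at 5 DAP. The highest of the 3 DAP kernel, the glycine-rich RNA-binding grp1 (GRMZM2G080603), was shared by both tissues, with 817 FPKM in leaf and 1854 and 1198 FPKM in kernels, and was not called. The high mobility group gene MNB1B (GRMZM5G834758), which binds DNA in chromatin, had 105 FPKM in leaf, against 1075 and 740 FPKM in kernels (named after its values were seen).

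The labels were checked against marker genes. The identifiers matched to mesophyll markers, homonyms included, summed to 2577 FPKM in leaf, against 47.1 and 40.9 FPKM in the 3 and 5 DAP kernels, and the bundle sheath markers me3, ssu1 and rca1 summed to 432 FPKM in leaf against 3.30 and 1.36 FPKM in the kernels. Markers of ovule, nucellus and pericarp, homonyms included, summed to 7.42 FPKM in leaf, against 467 and 487 FPKM in the kernels. The kernel sums came almost wholly from the MADS-box genes zag1, zag2, ZMM2 (GRMZM2G359952) and bde1. The other markers did not share this: c2 had 5.27 FPKM in leaf, most of the leaf sum, against 4.45 and 1.83 FPKM in kernels. The marker p1 was listed at 0 in leaf and had 0.32 and 0.19 FPKM in kernels. Storage genes of the later endosperm (zeins, starch enzymes and their regulators, homonyms included) summed to 9.30 FPKM in leaf and to 19.1 and 32.8 FPKM in the kernels, and embryo markers to 0.06 FPKM in leaf and to 0.21 and 0.33 FPKM in the kernels. In leaf 3.72 FPKM of that sum came from the identifier with the symbol pbf1 (GRMZM2G146267), which had 4.62 and 6.54 FPKM in the kernels. The C4 genes pep1, pdk1 and me3 and the activase gene rca1 were at 1.48 FPKM or less each in both kernels. The mesophyll marker mdh6 was not, with 15.6 and 15.3 FPKM in the 3 and 5 DAP kernels, and ssu1 had 1.58 and 0.49 FPKM there. A homonym of pep1 (GRMZM5G899080) had 22.0 and 15.6 FPKM in the kernels. The storage genes, which summed to 3783 FPKM in 10 DAP endosperm, were low in leaf and kernels alike. Pollen markers were not matched to an identifier.

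The photosynthetic apparatus was almost wholly higher in leaf. The light harvesting antenna, the photosystem cores with electron transport, and the Calvin cycle lists together held 124 genes, of which 86 were compared; 82 were higher in leaf and 0 lower. Together the listed genes made up 5.23% of the summed FPKM in leaf, against 0.0598% and 0.0477% in the 3 and 5 DAP kernels. Antenna proteins bind chlorophyll and pass light energy to the reaction centres, and all 16 of the 24 listed antenna genes that were compared were higher in leaf (median log2 ratio 6.43). The LHB1B2 match AC207722.2_FG009 had 1176 FPKM in leaf, against 1.27 and 1.25 FPKM in the kernels. A further LHB1B2 match, Cab-m7 (GRMZM2G402936), had 869 FPKM in leaf, against 0.44 and 0.48 FPKM in the kernels, and the LHCA3 match GRMZM2G010884 of photosystem I had 569 FPKM in leaf, against 0.40 and 0.30 FPKM. No antenna gene compared exceeded 2.46 FPKM in a kernel, so each passed the filter through its level in leaf. The other 8 listed genes were under 5 FPKM in all 3 libraries. Among the 16 compared, the lowest value in leaf was 7.42 FPKM, and the median was 117 FPKM in leaf and 0.40 and 0.39 FPKM in the kernels.

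Reaction centre and electron transport genes followed the antenna. Of 56 compared, 52 were higher in leaf and 0 lower (median log2 ratio 5.28). A ferredoxin match (ATFD2, GRMZM2G043162), which hands electrons from photosystem I to soluble acceptors, had 866 FPKM in leaf and was listed at 0 in both kernels. The photosystem II subunit psbs1 (GRMZM2G077333), needed to dissipate excess light energy, had 539 FPKM in leaf, against 0.12 and 0.11 FPKM in the kernels. The OEC33 match GRMZM2G175562, an extrinsic protein of the oxygen-evolving complex, had 693 FPKM in leaf and kept some level in kernels, 12.7 and 4.52 FPKM. The 4 genes of the list that were not called were the PSAN match GRMZM2G009048 (28.5 FPKM in leaf, 5.90 and 6.53 FPKM in kernels, just short of 4-fold), the PPD5 match GRMZM2G000256 and 2 matches to a mitochondrial ferredoxin, GRMZM5G856338 and GRMZM2G013607; the last had 8.69 FPKM in leaf and 13.8 and 15.8 FPKM in kernels. The early light-induced protein match GRMZM2G355752, in no list, was among the 12 largest differences, with 1310 FPKM in leaf, against 2.49 and 0.25 FPKM in kernels.

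All 14 Calvin cycle genes compared, of 18 listed, were higher in leaf (median log2 ratio 6.0). None of them exceeded 3.79 FPKM in a kernel, so these too passed the filter through the leaf. The CP12 match GRMZM2G480850, a small protein that holds Calvin cycle enzymes inactive in the dark, had 1097 FPKM in leaf, against 2.07 and 1.21 FPKM in the kernels. The FBA2 match GRMZM2G046284, a plastid aldolase, had 606 FPKM in leaf, against 0.75 and 0.44 FPKM. Phosphoribulokinase (PRK match GRMZM2G162529), which makes the acceptor for carbon dioxide, had 199 FPKM in leaf, against 0.39 and 0.22 FPKM, and Rubisco activase rca1 (GRMZM2G162200) had 147 FPKM in leaf, against 0.24 and 0.15 FPKM. The Rubisco small subunit gene ssu1 (GRMZM2G098520) was much lower than these in leaf, at 22.7 FPKM, with 1.58 and 0.49 FPKM in kernels; it is 1 member of a family of near-identical copies among which reads can be divided, as holds for the histone, tubulin and heat shock families below, so single values in these families are uncertain.

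Genes for plastid ribosomal proteins were higher in leaf as well. All 15 compared, of 23 listed, were called higher, with a median log2 ratio of 3.79; 4 of the 15 are gene models whose match is a plastid-encoded gene. The RPL27 match GRMZM2G145496 had 415 FPKM in leaf, against 8.65 and 7.70 FPKM in kernels, and the PRPL28 match GRMZM2G038833 had 106 FPKM in leaf, against 4.31 and 2.87 FPKM. Unlike the antenna genes, these kept a measurable level in kernels, with list medians of 4.71 and 3.07 FPKM there against 58.7 FPKM in leaf. Of the 38 genes for cytosolic ribosomal proteins that were compared, 0 were called in either direction (median log2 ratio -0.71), and their median lay near that of all genes. The RPL24 match GRMZM2G142640 had 200.2 FPKM in leaf and 264 and 229 FPKM in kernels. Of 77 listed gene models whose match is a plastid-encoded gene 16 were compared, among them those 4 and 7 of the photosystem and electron transport list. In leaf 15 of the 16 were higher (median log2 ratio 3.14), led by the PSBG match GRMZM2G304947 with 228 FPKM, against 5.23 and 1.99 FPKM in kernels. Poly(A) RNA was sequenced, and whether these gene models measure plastid transcripts was not tested. Of 5 genes compared in the chlorophyll list 3 were higher in leaf. The PORA match por (GRMZM2G073351), which reduces protochlorophyllide in the light, had 16.6 FPKM in leaf, against 0.15 and 0.10 FPKM. The ATCLH2 match GRMZM2G127421, named for chlorophyllase, an enzyme of chlorophyll breakdown and not of synthesis, had 22.6 FPKM in leaf, against 1.47 and 2.37 FPKM.

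**Figure D2:**
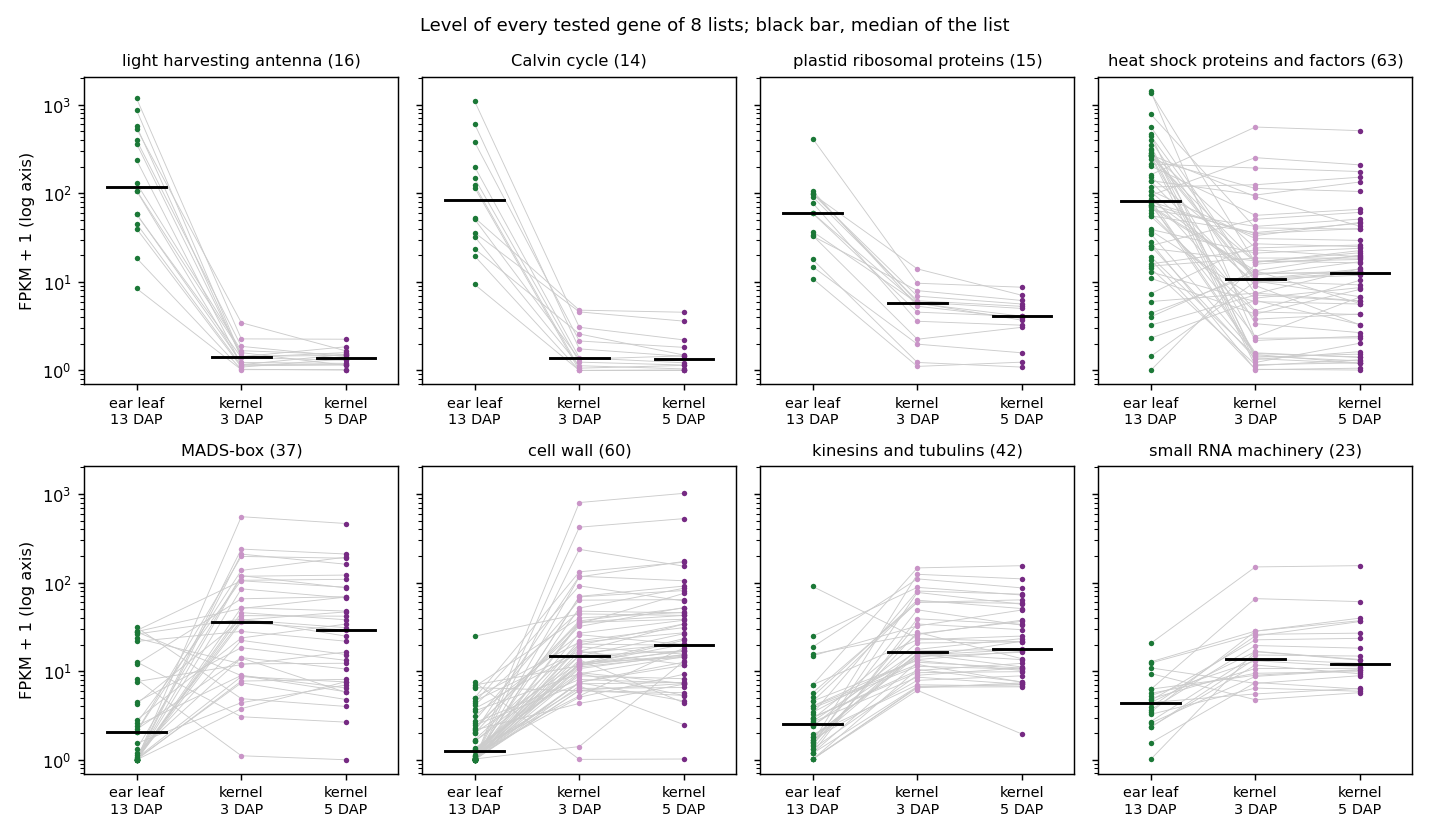
Each dot is the FPKM + 1 of 1 gene (log axis) in ear leaf, the 3 DAP kernel and the 5 DAP kernel, grey lines join the values of a gene, and black bars are list medians. Antenna, Calvin cycle and plastid ribosomal genes are all higher in leaf, heat shock genes are mixed with most above their kernel level, and the 4 lists in the lower row have lower medians in leaf than in either kernel.

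The C4 cycle list was split; its enzymes belong to families that also have members outside the cycle. Of 23 genes compared, 11 were higher in leaf and 3 lower (median log2 ratio 1.81). The family members known for C4 photosynthesis were among the largest differences of all. PEP carboxylase pep1 (GRMZM2G083841) had 932 FPKM in leaf, against 0.87 and 1.15 FPKM in the kernels, and pyruvate orthophosphate dikinase pdk1 (GRMZM2G306345), which regenerates PEP, had 968 FPKM in leaf, against 0.84 and 1.21 FPKM. Plastid NADP-malate dehydrogenase mdh6 (GRMZM2G129513) had 665 FPKM in leaf, against 15.6 and 15.3 FPKM, and the decarboxylase of the bundle sheath, NADP-malic enzyme me3 (GRMZM2G085019), had 263 FPKM in leaf, against 1.48 and 0.72 FPKM. A carbonic anhydrase match (ATBCA4, GRMZM2G121878), which supplies bicarbonate to PEP carboxylase, had 435 FPKM in leaf, against 0.40 and 0.19 FPKM. The PCK1 match GRMZM2G001696, a PEP carboxykinase, had 179 FPKM in leaf, against 2.22 and 1.84 FPKM, and the dikinase regulatory protein pdrp1 (GRMZM2G131286) had 202 FPKM in leaf, against 0.68 and 0.99 FPKM.

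Other members of the same families were high in kernels instead. These partners, and members of other lists named below beyond the 5 highest of a list, were picked after their values were seen. The PPC3 match GRMZM2G110714, a further PEP carboxylase, had 0.03 FPKM in leaf, against 33.95 and 37.2 FPKM in kernels. NADP-malic enzyme me2 (GRMZM2G122479) had 13.9 FPKM in leaf, against 106 and 97.7 FPKM. The listed gene GRMZM5G899080 carries the synonym Pep1 but is not the C4 enzyme's gene. It has no Arabidopsis match, so it is not shown to be a PEP carboxylase. It had 2.52 FPKM in leaf, against 22.0 and 15.6 FPKM. PEP carboxylase pep7 (GRMZM2G069542), with 11.4 FPKM in leaf and 35.2 and 30.5 FPKM in kernels, was not called. The second dikinase gene, GRMZM2G097457, was low in all 3 libraries (5.15 FPKM in leaf, 1.07 and 2.49 FPKM in kernels), while it reached 1343 FPKM in 13 DAP endosperm, where pdk1 had 269 FPKM.

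Photorespiration differed less than the C4 and Calvin cycles, with 3 of 14 genes higher in leaf, 0 lower and a median log2 ratio of 0.75. Of the catalases, which remove the peroxide that glycolate oxidation yields, cat2 (GRMZM2G090568) was higher, with 137 FPKM in leaf, against 0.50 and 0.39 FPKM in kernels. Neither cat1 (GRMZM2G088212), with 33.4 FPKM in leaf and 66.3 and 59.6 FPKM in kernels, nor the CAT1 match GRMZM2G079348, with 68.2 FPKM in leaf and 34.5 and 32.5 FPKM in kernels, was called. Glycolate oxidase go1 (GRMZM2G129246) had 17.1 FPKM in leaf, against 0.07 and 0.11 FPKM.

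Such splits could be counted over the whole table. Of 8567 Arabidopsis matches with a compared maize gene, 442 had at least 2 called maize genes. In 398 of these all called members lay on 1 side, and in 44 at least 1 member was higher and 1 lower in leaf. The plastid phosphate translocator matches (ARAPPT) are an example, GRMZM2G174107 with 53.8 FPKM in leaf, against 0.42 and 0.51 FPKM in kernels, and ppt1 (GRMZM2G047404) with 2.12 FPKM in leaf, against 24.8 and 21.2 FPKM. For the omega-3 fatty acid desaturase matches (AtFAD8), fad7 (GRMZM2G128971) had 143 FPKM in leaf, against 5.82 and 6.76 FPKM, and GRMZM2G354558 had 0.39 FPKM in leaf, against 25.5 and 44.9 FPKM.

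**Figure D3:**
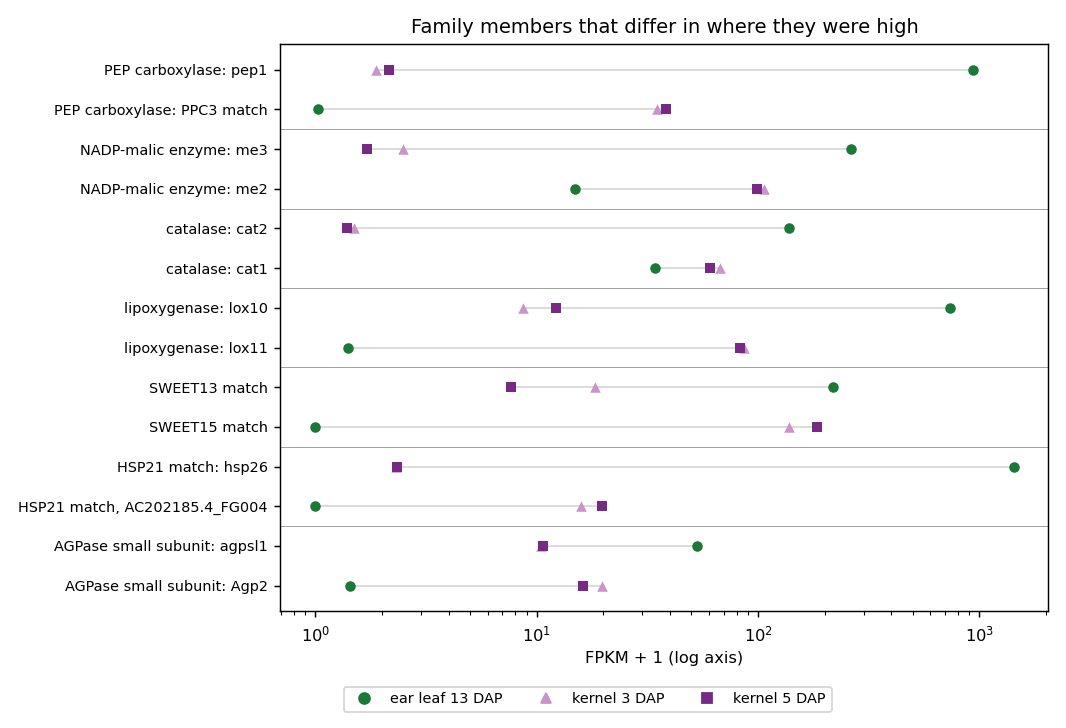
FPKM + 1 (log axis) of 7 pairs from 1 family or match each, with ear leaf as green circles, the 3 DAP kernel as pale triangles and the 5 DAP kernel as purple squares. In every pair the upper gene is high in leaf and the lower gene is higher in both kernels; cat1, at 33.4 FPKM in leaf and 66.3 and 59.6 FPKM in kernels, is the lower gene that was not called.

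Genes that make, move and cleave sucrose went both ways. Of 18 sucrose synthesis and export genes compared, 6 were higher in leaf and 4 lower, and the list's median log2 ratio of -0.22 turned to 0.29 with median-of-ratios scaling. Sucrose phosphate synthase sps1 (GRMZM5G875238), which controls sucrose synthesis, had 51.0 FPKM in leaf, against 1.62 and 1.34 FPKM in kernels, and the AtcFBP match GRMZM5G836250, a cytosolic fructose-1,6-bisphosphatase of the same path, had 46.2 FPKM in leaf, against 0.09 and 0.24 FPKM. The sucrose transporter sut1 (GRMZM2G034302), which loads the phloem, had 86.5 FPKM in leaf, against 11.3 and 4.16 FPKM. SWEET proteins let sugars out of cells. The SWEET13 match GRMZM2G173669 had 217 FPKM in leaf, against 17.4 and 6.65 FPKM in kernels, whereas the SWEET15 match GRMZM5G872392 was listed at 0 in leaf and had 137 and 183 FPKM in kernels. Of the 10 SWEET matches compared, 3 were higher and 4 lower in leaf.

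Among 12 sucrose cleavage genes 1 was higher and 3 were lower in leaf; the list's median log2 ratio was 0.01, and -0.13 against the 3 DAP kernel alone. Cell wall invertase mn1 (GRMZM2G119689), needed for sugar entry at the base of the kernel, was listed at 0 in leaf and had 21.9 and 34.7 FPKM in kernels. Vacuolar invertase ivr2 (GRMZM2G089836) had 0.87 FPKM in leaf, against 42.8 and 25.7 FPKM, and sucrose synthase sus1 (GRMZM2G152908) had 3.57 FPKM in leaf, against 50.5 and 48.6 FPKM. Sucrose synthase sh1 (GRMZM2G089713) was not called (15.7 FPKM in leaf, 36.0 and 24.0 FPKM in kernels), and neither was sus2 (GRMZM2G318780), with 17.5 FPKM in leaf and 4.24 and 2.13 FPKM in kernels. The gene called higher was a match to a neutral invertase (A/N-InvE, GRMZM2G040843), with 25.4 FPKM in leaf, against 4.52 and 3.79 FPKM.

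Starch synthesis is named in the series title. In this comparison 13 of its 17 compared genes were not called, about the same share as over all genes compared (76.0%). Of 17 compared, 1 was higher and 3 were lower in leaf (median log2 ratio 0.08). ADP-glucose pyrophosphorylase, the committed step, again used different genes: the small subunit agpsl1 (GRMZM2G163437) had 51.9 FPKM in leaf, against 9.49 and 9.64 FPKM in kernels, and the small subunit Agp2 (GRMZM2G106213) had 0.44 FPKM in leaf, against 18.8 and 15.3 FPKM. The large subunit gene GRMZM2G027955 (APL2 match), with 133 FPKM in leaf and 23.2 and 32.6 FPKM in kernels, missed the limit narrowly. Branching enzyme ae1 (GRMZM2G032628) had 0.11 FPKM in leaf, against 14.1 and 17.4 FPKM. The endosperm subunits sh2 (GRMZM2G429899) and bt2 (GRMZM2G068506) were low everywhere, with 1.42 and 3.70 FPKM in leaf, 1.22 and 5.32 FPKM at 3 DAP and 2.15 and 5.53 FPKM at 5 DAP, against 2270 and 2406 FPKM in 13 DAP endosperm.

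Of the lists, the heat shock proteins and factors had the most genes higher in leaf after the photosystem list. Of 63 compared, 34 were higher and 2 lower (median log2 ratio 2.59). The listed genes made up 3.84% of the summed FPKM in leaf, against 0.77% and 0.78% in the 3 and 5 DAP kernels. In isolated endosperm their share ran from 0.82% at 25 DAP to 2.63% at 9 DAP. Small heat shock proteins, which keep unfolding proteins from aggregating, showed the difference from kernels most: 13 of 15 were higher in leaf. The plastid form hsp26 (GRMZM2G149647) had 1425 FPKM in leaf, against 1.31 and 1.33 FPKM in kernels, and the HSP18.2 match AC208204.3_FG006 had 1365 FPKM in leaf, against 15.6 and 21.6 FPKM. The other 2 small heat shock genes, AC202185.4_FG004 and AC210517.3_FG003, were lower in leaf although their match is HSP21, as for hsp26; AC202185.4_FG004 was listed at 0 in leaf and had 14.8 and 18.7 FPKM in kernels.

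Among the larger chaperones, the HSP70 and HSP90 families held genes higher in leaf beside genes that were not called, and neither had a gene called lower. Of 17 HSP70 genes 11 were higher in leaf, for example GRMZM2G310431 (Hsp70) with 567 FPKM in leaf, against 9.64 and 10.9 FPKM in kernels. In contrast hsp70-4 (GRMZM2G340251), the highest gene of this list in both kernels, had 161 FPKM in leaf and 559 and 509 FPKM in kernels and was not called. Of 12 HSP90 genes 4 were higher, among them HSP90-1 (GRMZM2G024668) with 782 FPKM in leaf, against 39.7 and 38.4 FPKM, and hsp82 (GRMZM5G833699) with 311 FPKM in leaf, against 0.23 and 1.03 FPKM. The disaggregase hsp101 (GRMZM2G360681) had 271 FPKM in leaf, against 9.22 and 5.79 FPKM, and 4 of 8 heat shock factors were higher. The 4 HSP60 matches, chaperonin genes, were not called. The level of the 34 genes higher in leaf also varied among the endosperm libraries, whose medians for these genes lay between 1.98 FPKM at 9 DAP and 39.2 FPKM at 10 DAP; the medians were 144 FPKM in leaf and 3.19 and 3.31 FPKM in the 3 and 5 DAP kernels. Whether conditions on the day of sampling took part in the difference was not tested.

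Clock and B-box genes, whose transcripts cycle over the day or respond to light, were split at this single midday time. Of 22 compared, 8 were higher and 3 lower in leaf (median log2 ratio 1.69). Matches to LHY, a morning gene of the clock, were higher in GRMZM2G474769 (23.8 FPKM in leaf, 2.47 and 3.18 FPKM in kernels) and GRMZM2G014902 (23.4 FPKM in leaf, 3.67 and 2.34 FPKM in kernels), while another LHY match, GRMZM2G175265, had 37.6 FPKM in leaf and 3.75 and 9.44 FPKM in kernels and was not called. The BBX24 match GRMZM2G018876 had 40.2 FPKM in leaf, against 5.06 and 4.01 FPKM. In the other direction the CONSTANS-like conz1 (GRMZM2G405368) had 1.50 FPKM in leaf, against 14.0 and 12.2 FPKM, and the clock gene gigz1a (GRMZM2G107101) was nearly level, at 19.7 FPKM in leaf and 22.3 and 24.7 FPKM in kernels.

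Jasmonate genes divided by family member. Jasmonate is a wound and defence hormone made from linolenic acid by lipoxygenase, allene oxide synthase and allene oxide cyclase, and of 28 genes compared 5 were higher and 5 lower in leaf (median log2 ratio -0.62). Lipoxygenase lox10 (GRMZM2G015419) had 739 FPKM in leaf, against 7.65 and 11.2 FPKM in kernels, and lox11 (GRMZM2G009479), with the same ATLOX2 match, had 0.40 FPKM in leaf, against 85.0 and 81.9 FPKM. The lipoxygenase lox5 (GRMZM2G102760) had 7.51 FPKM in leaf, against 59.0 and 162 FPKM, and allene oxide cyclase aoc1 (GRMZM2G077316) had 0.34 FPKM in leaf, against 16.7 and 20.4 FPKM. The JAZ1 matches TIFY4 (GRMZM2G445634) and TIFY28 (GRMZM2G036351), repressors of the response, were higher in leaf, with 517 and 383 FPKM there, 99.2 and 36.1 FPKM at 3 DAP and 126 and 52.0 FPKM at 5 DAP.

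Of 11 defence proteins 3 were higher and 1 lower in leaf, and their median log2 ratio of -0.17 turned positive with quantile, upper quartile and median-of-ratios scaling and against either kernel library alone. A class I chitinase gene, GRMZM2G145461, had 105 FPKM in leaf, against 2.21 and 0.57 FPKM in kernels, and chiB (GRMZM2G005633), a match to a class IV chitinase, had 1.14 FPKM in leaf, against 158 and 52.9 FPKM. The thaumatin-like pr5 (GRMZM2G402631) had 383 FPKM in leaf, 95.3 FPKM at 3 DAP and 13.7 FPKM at 5 DAP, so it missed the limit against the 3 DAP kernel. For the benzoxazinoid defence compounds, bx1 (GRMZM2G085381), which opens the path, was higher in leaf (60.8 FPKM, against 1.65 and 11.7 FPKM in kernels), while bx8 (GRMZM2G085054) and bx9 (GRMZM2G161335), the glucosyltransferases at its end, had 21.5 and 42.1 FPKM in leaf, 39.4 and 42.2 FPKM at 3 DAP and 41.8 and 44.9 FPKM at 5 DAP. Among aquaporins 5 of 15 were higher and 2 lower in leaf (median log2 ratio 1.62), led by NIP2-2 (GRMZM2G137108) with 51.7 FPKM in leaf, against 0.03 and 0.06 FPKM.

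**Figure D4:**
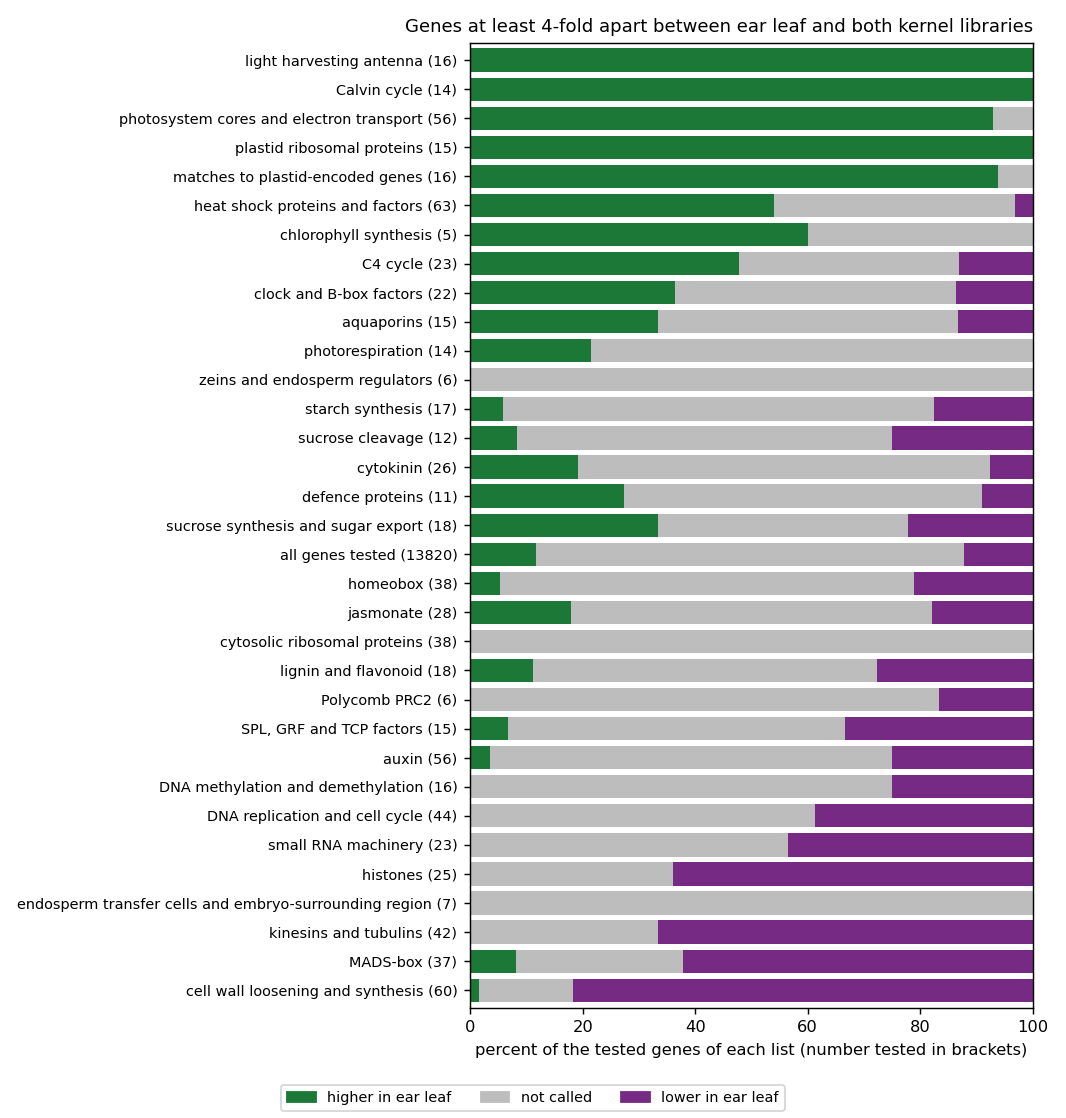
For each gene list, ordered by its median log2 ratio, the bar gives the percent of its compared genes that were at least 4-fold higher in ear leaf (green), not called (grey) or at least 4-fold lower (purple), with the number compared in brackets. All genes compared, with 11.8% higher and 12.2% lower, stand in the lower middle; antenna, Calvin cycle and plastid ribosomal lists are wholly green, and the cell wall list is purple for 49 of 60 genes.

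Genes of the growing cell wall made up the list with the lowest median. Of 60 compared, of 171 listed, 49 were lower and 1 higher in leaf (median log2 ratio -3.54), and the listed genes held 0.04% of the summed FPKM in leaf, against 1.07% and 1.30% in the 3 and 5 DAP kernels. Expansins loosen walls so that cells can expand, and 12 of 15 were lower in leaf. The EXPB4 match GRMZM2G121308 was listed at 0 in leaf and had 802 and 1020 FPKM in the kernels, and the EXPB2 match GRMZM2G118873 was also listed at 0 in leaf, against 422 and 528 FPKM. The XTH25 match GRMZM2G166944, a xyloglucan-modifying enzyme, was listed at 0 in leaf and had 237 and 152 FPKM in kernels. All 8 cellulose synthase genes compared were lower in leaf, as were 11 of 13 fasciclin-like arabinogalactan protein genes. The cellulose synthase genes had 0.02 to 4.02 FPKM in leaf, 5.07 to 31.0 FPKM at 3 DAP and 6.26 to 51.4 FPKM at 5 DAP. All 8 were under 5 FPKM in leaf, so each passed the filter through a kernel. The same holds for the 39 of the 60 compared cell wall genes that were under 1 FPKM in leaf. The cell wall protein gene HRGP (GRMZM2G168651), a hydroxyproline-rich glycoprotein, was among the 12 largest differences in this direction and was listed at 0 in leaf, against 908 and 581 FPKM in kernels. The lipid transfer protein gene LTP3 (GRMZM2G126397) had 1.08 FPKM in leaf, against 351 and 456 FPKM. Lignin and flavonoid genes were split, with 2 higher and 5 lower of 18 (median log2 ratio -0.89); dihydroflavonol reductase a1 (GRMZM2G026930) had 0.03 FPKM in leaf, against 7.91 and 8.14 FPKM.

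MADS-box transcription factors, which set the identity of floral organs and ovules, were mostly lower in leaf. Of 37 compared, 23 were lower and 3 higher in leaf (median log2 ratio -2.96), and the listed genes summed to 239 FPKM in leaf, against 2479 and 2263 FPKM in the kernels. All 7 genes with an AGL9 or AGL4 match, the SEPALLATA type, were lower in leaf: zmm6 (GRMZM2G159397; zmm7 is a further name in the gene table) was listed at 0 there and had 555 and 464 FPKM in kernels, and zmm27 (GRMZM2G129034) had 0.03 FPKM in leaf, against 238 and 210 FPKM. All 7 genes of the AGAMOUS type, which specify carpels and ovules, were lower too. Of the 37 compared, 18 were under 1 FPKM in leaf and so passed the filter through a kernel. ZMM2 (GRMZM2G359952) had 1.08 FPKM in leaf, against 197 and 188 FPKM, zag1 (GRMZM2G052890) had 1.07 FPKM in leaf, against 137 and 193 FPKM, and zag2 (GRMZM2G160687) was listed at 0 in leaf, against 84.1 and 66.1 FPKM. The AGL6 match bde1 (GRMZM2G160565) was listed at 0 in leaf, against 44.9 and 37.1 FPKM, and all 3 PISTILLATA matches were lower. These MADS-box genes include the markers of ovule tissue given above, which were at 4.29 FPKM or less each in 7 DAP endosperm. The 3 genes higher in leaf had other matches, AGL22 (m26, GRMZM2G046885, with 30.3 FPKM in leaf, against 3.90 and 3.00 FPKM), AGL71 and AGL26.

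Homeobox genes, 38 compared, had 2 higher and 8 lower in leaf (median log2 ratio -0.52), close to the median of all genes. The class I KNOX genes, which keep meristem cells undifferentiated and are shut off in leaves, were all lower. Of these, kn1 (GRMZM2G017087) was listed at 0 in leaf and had 9.87 and 5.70 FPKM in kernels. All 5 of this class that were compared had 0.01 FPKM or less in leaf, so each passed the filter through a kernel. Grassy tillers gt1 (GRMZM2G005624), a repressor of bud and floral organ growth, had 0.01 FPKM in leaf, against 58.2 and 12.3 FPKM. The KNAT3 match GRMZM2G055243, of the other KNOX class, had 126 FPKM in leaf and 32.6 and 25.7 FPKM in kernels, just short of the limit. Of 15 SPL, GRF and TCP factors, 5 were lower and 1 higher in leaf.

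Genes of dividing cells were often lower in leaf, and 0 were called higher. The lists of histones, DNA replication and cell cycle, and kinesins and tubulins had 16 of 25, 17 of 44 and 28 of 42 compared genes lower in leaf and 0 higher, with median log2 ratios of -2.33, -1.71 and -2.76; with median-of-ratios scaling 10 histone genes were lower, and 1 tubulin gene was higher with that and with upper quartile scaling. Histone his2a1 (GRMZM2G305046) had 8.72 FPKM in leaf, against 293 and 218 FPKM in kernels, and 8 of 10 H2A and 8 of 13 H2B genes were lower, whereas the 2 linker histone H1 genes were not called (hon101, GRMZM2G080274, had 40.6 FPKM in leaf and 170.0 and 105 FPKM in kernels). In the DNA replication and cell cycle list 27 of 44 genes were not called, among them its 5 highest. The highest, the CDKC;1 match GRMZM2G019267, had 33.1 FPKM in leaf and 67.9 and 61.4 FPKM in kernels. The cyclin gene cycD2 (GRMZM2G075117) lay above both kernels, with 51.2 FPKM in leaf and 47.2 and 42.4 FPKM in kernels. The replicative helicase subunits matched to MCM3 (GRMZM2G100639), MCM6 (GRMZM2G021069) and MCM5 (GRMZM2G075978) had 0.10, 0.13 and 0.18 FPKM in leaf, 9.08, 8.0 and 6.91 FPKM at 3 DAP and 7.84, 9.26 and 6.59 FPKM at 5 DAP. The clamp gene pcna1 (GRMZM2G030523), with 2.93 FPKM in leaf and 5.05 and 4.21 FPKM in kernels, was not called, while pcna2 (GRMZM2G108712) was (0.87 FPKM in leaf, 12.5 and 10.3 FPKM in kernels).

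The cytoskeleton list had the lowest median of these. Of 18 tubulin genes 14 were lower in leaf, of 10 kinesins 5, and of 12 MAP65 and MAP70 genes, whose products bundle or bind microtubules, 9. Alpha-tubulin tua4 (GRMZM2G152466) had 0.58 FPKM in leaf, against 123 and 109 FPKM in kernels, and GRMZM2G153292 (TUA1) had 6.01 FPKM in leaf, against 146 and 155 FPKM. One alpha-tubulin ran the other way without passing the limit: the TUA5 match GRMZM2G051782 had 89.6 FPKM in leaf and 22.5 and 20.6 FPKM in kernels.

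Small RNA genes were lower in leaf in 10 of 23 cases and higher in 0 (median log2 ratio -1.87). ARGONAUTE proteins carry small RNAs to their targets, and 9 of 13 of their genes were lower. The AGO4 match GRMZM2G089743, of the type that guides DNA methylation, had 5.22 FPKM in leaf, against 65.0 and 60.1 FPKM in kernels, and the AGO5 match GRMZM2G123063 had 0.01 FPKM in leaf, against 15.8 and 12.6 FPKM. The tenth gene was lbl1 (GRMZM2G020187), the SGS3 of trans-acting siRNA synthesis, with 19.6 FPKM in leaf, against 150 and 155 FPKM. The 3 DICER genes were not called, nor was the RNA polymerase mop1 (GRMZM2G042443), at 3.43 FPKM in leaf and 4.54 and 5.40 FPKM in kernels.

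DNA methylation genes had 4 of 16 lower and 0 higher (median log2 ratio -1.39), and 1 lower with quantile, upper quartile or median-of-ratios scaling. All 4 were FDM1 matches, factors of RNA-directed DNA methylation, the highest being GRMZM2G025059 with 9.70 FPKM in leaf, against 45.0 and 54.1 FPKM. The methyltransferase met1 (GRMZM2G334041) had 0.60 FPKM in leaf and 3.55 and 4.44 FPKM in kernels and stayed under the filter. In the Polycomb complex PRC2, which deposits a repressive histone mark, 1 of 6 genes was lower, the methyltransferase mez1 (GRMZM2G157820) with 0.88 FPKM in leaf, against 9.39 and 12.9 FPKM, while mez2 (GRMZM5G875502) was level at 16.4 FPKM in leaf and 11.8 and 15.0 FPKM in kernels.

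For hormones other than jasmonate, auxin genes were more often lower in leaf (14 of 56, with 2 higher; median log2 ratio -1.08). Auxin response factors accounted for 10 of the 14, of 28 compared, led by ARF17 (GRMZM2G159399) with 2.13 FPKM in leaf, against 36.8 and 37.2 FPKM. Both genes called higher were matches to IAGLU, an enzyme that joins auxin to glucose, and GRMZM2G457929 had 27.7 FPKM in leaf, against 0.37 and 0.33 FPKM. A further IAGLU match, GRMZM2G316030, ran the other way without being called, with 1.49 FPKM in leaf and 5.82 and 4.21 FPKM in kernels. Of 26 cytokinin genes 5 were higher and 2 lower in leaf, and the median log2 ratio of -0.08 turned positive with quantile, upper quartile and median-of-ratios scaling and against the 5 DAP kernel alone. The type-A response regulator crr1 (GRMZM2G040736) had 39.2 FPKM in leaf, against 4.26 and 2.88 FPKM, and the cytokinin oxidase cko2 (GRMZM2G050997), which degrades the hormone, had 20.1 FPKM in leaf, against 0.41 and 0.07 FPKM.

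Endosperm transfer cell and embryo-surrounding region genes show what the rule leaves out. All 7 compared lay below both kernels in leaf and 0 were called, because their levels at 3 DAP were 1.20 FPKM or less. The transfer cell gene betl2 (GRMZM2G152655) was listed at 0 in leaf and had 0.61 FPKM at 3 DAP and 26.5 FPKM at 5 DAP, and esr1 (GRMZM2G046086) was listed at 0 in leaf and had 0.38 FPKM at 3 DAP and 18.6 FPKM at 5 DAP. The list summed to 0.12 FPKM in leaf, 3.57 FPKM at 3 DAP and 124 FPKM at 5 DAP. Zein and endosperm regulator genes were not called either, but of the 6 compared 3 lay above both kernels in leaf and 3 below. Nkd2 (GRMZM5G884137), with 5.73 FPKM in leaf and 0.41 and 0.71 FPKM in kernels, narrowly missed a higher call. Over the table, 848 genes were 4-fold from 1 kernel library only.

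Genes close to the limit differed little from each other. Just inside it, GRMZM2G088114 had 37.5 FPKM in leaf, against 7.88 and 8.62 FPKM in kernels, and GRMZM5G843213 had 6.30 FPKM in leaf, against 32.3 and 28.3 FPKM. Just outside it, the BAM1 match GRMZM2G450125 had 37.5 FPKM in leaf and 8.64 and 5.65 FPKM in kernels, and the HAP13 match GRMZM2G162145 had 7.72 FPKM in leaf and 34.3 and 33.8 FPKM in kernels. Among genes with leaf between the kernel stages, the ATHB-12 match GRMZM2G117164 had 26.8 FPKM in leaf, 50.6 FPKM at 3 DAP and 7.56 FPKM at 5 DAP, and the cytosolic glyceraldehyde-3-phosphate dehydrogenase gpc4 (GRMZM2G176307) had 30.0 FPKM in leaf, 21.6 FPKM at 3 DAP and 57.0 FPKM at 5 DAP.

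The called genes were then followed into isolated endosperm, libraries that the calls did not use. The genes were chosen for a high or a low level in leaf, so their place against endosperm is in part built into that choice. The shares below were counted for the called genes only, without the same share over all genes compared. Of the 1631 genes higher in leaf, 845 (51.8%) stayed under 1 FPKM in all 8 endosperm libraries, and 1599 (98.0%) were highest in leaf against every endosperm library as well. An endosperm library exceeded the leaf for the other 32, among them sorbitol dehydrogenase sdh1 (GRMZM2G175423), with 61.7 FPKM in leaf, 7.94 and 7.36 FPKM in the 3 and 5 DAP kernels and 1106 FPKM in 13 DAP endosperm, and an alanine aminotransferase match (AlaAT1, GRMZM2G088064), with 378 FPKM in leaf, 24.1 and 26.0 FPKM in kernels and 551 FPKM in 13 DAP endosperm. Of the 1680 genes lower in leaf, 280 (16.7%) stayed under 1 FPKM in all endosperm libraries and 1020 (60.7%) reached 5 FPKM in at least 1 of them. Their median of 0.385 FPKM in leaf compares with 5.79 FPKM in 7 DAP and 0.91 FPKM in 25 DAP endosperm. Genes not called had medians of 8.29 FPKM in leaf, 7.40 FPKM in 7 DAP and 5.17 FPKM in 25 DAP endosperm. For 493 of the genes lower in leaf (29.3%) an endosperm library lay above both kernels, and for 310 (18.5%) the leaf lay above the endosperm of its own day, 13 DAP.

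**Figure D5:**
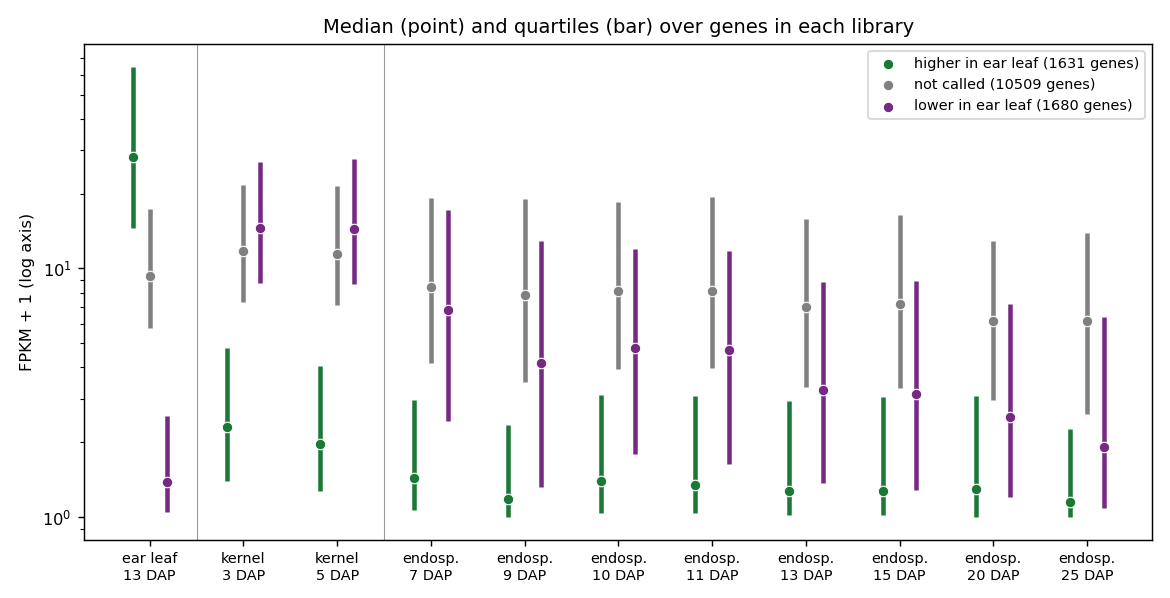
Points are medians and bars run from the lower to the upper quartile of FPKM + 1 (log axis) over the genes higher in leaf (green), not called (grey) and lower in leaf (purple), in ear leaf, both kernels and endosperm by day. Genes higher in leaf are below 1 FPKM at the median in every endosperm library, and genes lower in leaf go from a median of 5.79 FPKM at 7 DAP to 0.91 FPKM at 25 DAP.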

How the data were processed

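The deposited table gives FPKM that the authors calculated for 34145 genes in 11 libraries, with 2 decimals. The tools cutadapt, TopHat2 and edgeR are named, per the submitters' processing notes, without versions or roles. Build, annotation, counting program and strand setting are not given in the sources here. The number of per-sample columns left aside was 0. For names only, identifiers were looked up among the synonyms in RefSeq's gene table (Zm-B73-REFERENCE-NAM-5.0), where 18367 (53.8%) had an entry.

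From the deposited FPKM, log2(FPKM + 1) ratios of leaf to each kernel library were computed for genes with at least 5 FPKM in 1 of the 3 libraries, in Python 3.11.15 with numpy 2.4.6 and pandas 2.3.3, and drawn with matplotlib 3.10.9. The pseudocount of 1 understates the ratio of genes with low FPKM. With 1 library a stage no test, p-value or interval was possible. The script was tested on simulated data with known folds.

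The comparison and the 32 gene lists were chosen with earlier results of these data known, list words were matched to the Arabidopsis symbol or description, and patterns that caught unrelated genes were corrected after values were seen. Genes were named by rule: the 12 largest ratios of leaf to the closer kernel library each way among called, named genes of at least 20 FPKM (2 per family); the 5 highest of each list; a fixed set of 77 symbols, of which 16 were not matched; genes next to the limit; and genes with leaf between the kernels. Other genes were picked after their values were seen.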

Additional observations from a re-analysis of the deposited data

How the results depend on the processing

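The numbers of genes called depend most on the limit, the pseudocount and the filter. On the deposited values 1631 genes were higher and 1680 lower in leaf. A limit of 2-fold gave 2587 higher and 3895 lower, one of 8-fold 885 and 655, a pseudocount of 5 FPKM 862 and 440, and a filter of at least 20 FPKM 996 and 653. These settings change by construction which genes can be called. Under the other 10 settings both counts stayed within 1.5 times: pseudocount 0.1, a filter of 1 FPKM or none, quantile, upper quartile and median-of-ratios scaling, rescaling without the 100 highest genes, and leaf against either kernel library alone or their mean. Named genes and lists were followed under 8 settings (both pseudocounts, the 3 scalings, the rescaling and either kernel library alone). Of 207 named genes compared, between 0 and 28 lost and between 0 and 20 gained their call under any 1 of these, and 0 reversed. A reversal could hardly occur, so the 0 is no sign of stability. Pseudocounts and a single kernel library cannot change the side on which a called gene lies. The upper quartile and median-of-ratios factors, 0.77 to 1.15, are small beside 4-fold. Of 512 counts of list members under them, 434 stayed within 1.5 times. No paired analysis was possible because each stage has 1 library. No replicate could be left out. The absence of replicates and the unknown depth are the main limits: genes listed at 0 cannot be given a bound.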

Other observations

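The MYB genes c1 (GRMZM2G005066) and pl1 (GRMZM2G701063), known as activators of pigment synthesis, had 11.2 and 5.15 FPKM in leaf, 0 and 0.03 FPKM at 3 DAP and 0.03 and 0.08 FPKM at 5 DAP, and both were called higher. The pigment enzyme gene a1 (GRMZM2G026930) was called lower, with 0.03 FPKM in leaf, against 7.91 and 8.14 FPKM in kernels. Chalcone synthase c2 (GRMZM2G422750), the entry enzyme, had 5.27 FPKM in leaf and 4.45 and 1.83 FPKM in kernels and was not called, and the partner regulator r1 (GRMZM5G822829) was at 0.14 FPKM or less in all 3 libraries.

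Lipid body and lectin genes with a shared match also parted by tissue. Of the caleosin matches (AtCLO4), GRMZM2G063717 had 264 FPKM in leaf, against 0.29 and 0.43 FPKM in kernels, and GRMZM2G090505 had 0.21 FPKM in leaf, against 15.97 and 17.9 FPKM. Of the lectin matches (ArathEULS3), GRMZM2G410766 had 264 FPKM in leaf, against 5.63 and 1.79 FPKM, and GRMZM2G020940 had 9.04 FPKM in leaf, against 136 and 92.6 FPKM. These genes, c1 included, were picked after their values were seen.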
